A study of Mus musculus with 4 samples.

Results

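The clustered protocadherin genes were followed through a table of chromatin accessibility in mouse primary osteoblasts. A region of the table was a member if it lay on chromosome 18 and overlapped a protein-coding gene, or the 2 kb before its start, whose symbol begins with Pcdha, Pcdhb or Pcdhg in GENCODE M21 (GRCm38). Each region was counted once. The rule found 65 regions of the 255864 in the table, of which 18 lay in the Pcdha cluster (chr18:36930184-37187661), 13 in the Pcdhb cluster (chr18:37264938-37524479) and 34 in the Pcdhg cluster (chr18:37661793-37841873). These clusters hold 57 protein-coding genes, 14 in Pcdha, 22 in Pcdhb and 21 in Pcdhg.

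Accessibility was measured by ATAC-seq, in which the Tn5 transposase cuts and tags open DNA, so that more reads mean more accessible chromatin. The cells were osteoblasts, the bone-forming cells, from 3-day-old C57BL/6 mice, and the methods of the study take them from calvarial bone. The WT group is labelled wild type, and no source used here says whether those mice carried floxed alleles or Cre. The TCKO group carried Tet1fl/fl, Tet2fl/fl and Tet3fl/fl together with Prx1-Cre, a triple conditional knockout of the TET dioxygenases, which oxidize 5-methylcytosine and so promote DNA demethylation. Prx1-Cre acts in limb and part of the skull mesenchyme and its descendants, so other cells in a culture may retain the Tet genes. GEO's labels list 2 samples per genotype, a protocol text gives 3 repeats, and the deposited table holds 1 merged column per genotype. No replicate error, test or p-value could therefore be given. Values in parentheses after a ratio are its 95% Wilson interval, which reflects the error of counting alone, and reads amplified by PCR are not independent molecules.

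The 3 clusters encode cell adhesion proteins whose many isoforms give single cells, best known in neurons, a surface identity. In Pcdha and Pcdhg each variable exon has a promoter of its own and is spliced to constant exons shared by the cluster, whereas each Pcdhb gene is a single-exon gene of its own. Promoter choice is governed by DNA methylation and by loops that CTCF and cohesin form between promoters and enhancers lying outside the variable exons. The C-type isoforms (Pcdhac1, Pcdhac2, Pcdhgc3, Pcdhgc4 and Pcdhgc5) lie at the ends of the Pcdha and Pcdhg arrays and are known to be expressed more uniformly than the other isoforms.

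The table held 56898657 reads for WT and 34608167 for TCKO, and TCKO counts were multiplied by 1.644 to match the WT total before any ratio was formed. All 6 osteoblast marker genes had a region at their start, with 93 to 1375 reads in WT and 51 to 795 in TCKO. The loci of the targeted genes kept accessible regions in TCKO. Over its locus Tet1 had 6587 reads in WT and 3574 in TCKO, Tet2 had 2842 and 1486, and Tet3 had 5494 and 3040, with scaled log2 ratios of −0.16, −0.22 and −0.14. Which exons were flanked by loxP was not given in the sources used here, so these sums do not check the deletion.

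After scaling, the clusters together had about as many reads in TCKO as in WT, but single clusters differed from each other. The 65 regions held 11980 WT reads and 7404 TCKO reads, and the log2 ratio of the scaled TCKO sum to the WT sum was 0.02 (−0.02 to 0.06). Pcdha regions were higher in TCKO, Pcdhb regions were lower, and Pcdhg regions lay between them. The median log2 ratio of single regions, with 1 read added to each genotype, was 0.02 for the members and 0.06 for all regions of the table. The choice of scaling decided on which side of 0 Pcdha and the sum of all members fell. Pcdhb and Pcdhg were below 0 under every scaling tried. A genome-wide background of the peak caller was estimated from the fold enrichments and p-values of its peaks, as 1.98 in WT and 1.91 in TCKO. Divided by the shortest peak length of each genotype, 98 and 102 bp, these estimates give a factor of 1.079 in place of 1.644. With that factor the median of all regions was −0.53, and Pcdha came to −0.30, Pcdhg to −0.65 and Pcdhb to −0.82, so that the Pcdha direction was reversed while the order of the clusters stayed. Differences between the clusters do not depend on the factor.

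The Pcdha cluster held 2355 WT reads and 1772 TCKO reads, and its log2 ratio was 0.31 (0.22 to 0.40), or 1.24-fold (1.16 to 1.32). Of its 18 regions 15 had a ratio above 0, against 54.6% of all regions of the table. The interval lay wholly above 0 at 7 of 18 regions and wholly below at 0 of 18, against 29.5% and 18.9% of all regions. Among the 7, the Pcdha1 exon region and a Pcdha12 exon region were in the table only through a TCKO peak. Such selection favours a higher TCKO value, and regions with a TCKO peak alone summed to 1.33 across the table. Over the 16 Pcdha regions with a WT peak the ratio was 0.28. The Pcdhb cluster held 734 WT reads and 386 TCKO reads, and its log2 ratio was −0.21 (−0.39 to −0.03), or 0.865-fold (0.764 to 0.978). Here 9 of 13 regions were below 0, with 1 interval wholly below and 0 above. Of the 13 Pcdhb regions 9 were in the table only through a peak called in WT, which favours a lower TCKO value, and regions of this kind summed to −0.35 across the table. The 9 held 475 reads in WT and 221 in TCKO and had a ratio of −0.39 (−0.62 to −0.16). The other 4, with peaks in both genotypes, held 259 and 165 reads and had a ratio of 0.07 (−0.21 to 0.35), beside 0.00 for all such regions of the table, so the lower Pcdhb sum rests on the regions with a WT peak alone. The Pcdhg cluster held most of the reads, 8891 in WT and 5246 in TCKO, and its log2 ratio of −0.04 (−0.09 to 0.01) had an interval that included 0. Its 34 regions were split into 18 below 0 and 16 above, with 5 intervals wholly below and 6 wholly above.

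Set against each other, Pcdhb was lower than Pcdha by a log2 difference of −0.52 (−0.72 to −0.32), and Pcdhg was lower than Pcdha by −0.35 (−0.45 to −0.25). Pcdhg exceeded Pcdhb by 0.17, with an interval from −0.02 to 0.35 that included 0. Over regions with peaks in both genotypes alone, Pcdha came to 0.30 (0.20 to 0.40) in 8 regions and Pcdhg to −0.03 (−0.08 to 0.02) in 27. The difference of Pcdhb from Pcdha was then −0.23 (−0.53 to 0.07) and that of Pcdhg from Pcdhb −0.10 (−0.39 to 0.19), with intervals that included 0, and that of Pcdhg from Pcdha was −0.33 (−0.44 to −0.22). When each region of the clusters compared was left out in turn, the 1st difference ranged from −0.59 to −0.43, the 2nd from −0.40 to −0.31 and the 3rd from 0.08 to 0.24. The Pcdhb regions rest on few reads, and regions with few reads had higher ratios across the table: those under 200 reads in both genotypes together summed to 0.24, with a median of 0.17. Among such regions, Pcdha summed to 0.35 over 13 regions, Pcdhb to −0.21 over 13 and Pcdhg to 0.03 over 13. The differences among them were −0.56 (−0.81 to −0.30) for Pcdhb against Pcdha, −0.32 (−0.55 to −0.08) for Pcdhg against Pcdha and 0.24 (0.01 to 0.47) for Pcdhg against Pcdhb. In merged bulk samples a change in the share of cells of a type and a change in accessibility per cell cannot be told apart.

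**Figure D1:**
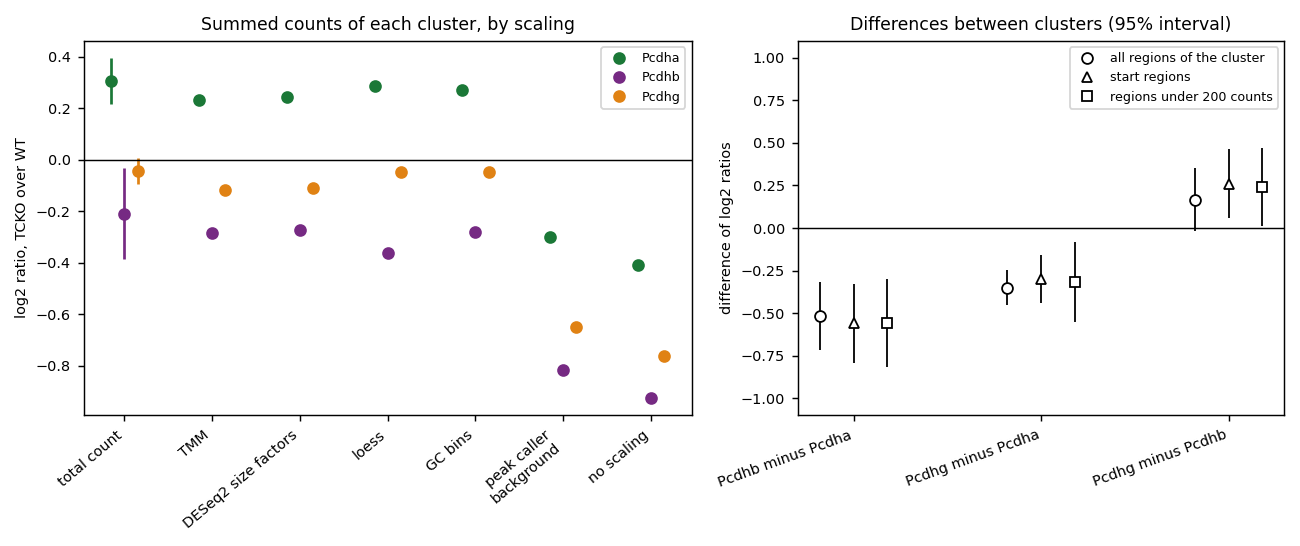
Left, log2 ratio of TCKO to WT for the summed reads of each cluster under 7 scalings, with the 95% interval (counting error only) drawn for scaling to the total count. Pcdha lies highest and Pcdhb lowest under each of them, and all 3 clusters are below 0 with the peak caller background and with no scaling. Right, differences of log2 ratios between clusters with 95% intervals over all regions of a cluster, regions at gene starts and regions under 200 reads.

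Gene starts differed between the clusters in how many had a region in the table. A region was assigned to a start if its midpoint lay within 1 kb of it, which gave 42 regions at the starts of 38 genes. All 21 Pcdhg genes had such a region, and 7 of 14 Pcdha genes and 10 of 22 Pcdhb genes did. The share of all protein-coding gene starts with a region was not computed, so whether these shares are low or high is not known. In Pcdha the starts without a region were those of Pcdha1, Pcdha2, Pcdha3, Pcdha5, Pcdha6, Pcdha7 and Pcdha8, so that starts with a region, apart from Pcdha4, lay in the part of the array nearest the constant exons. In Pcdhb they were Pcdhb1, Pcdhb4, Pcdhb5, Pcdhb7, Pcdhb9, Pcdhb10, Pcdhb11, Pcdhb12, Pcdhb14, Pcdhb16, Pcdhb18 and Pcdhb21. A region entered the table if a peak was called in either genotype, so a start without one had no called peak in WT or in TCKO. Reads at these 19 starts were not measured here. Starts with regions had a median of 64 reads in WT in Pcdha, 59.5 in Pcdhb and 140 in Pcdhg, and of 49, 26.5 and 100 in TCKO.

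**Figure D2:**
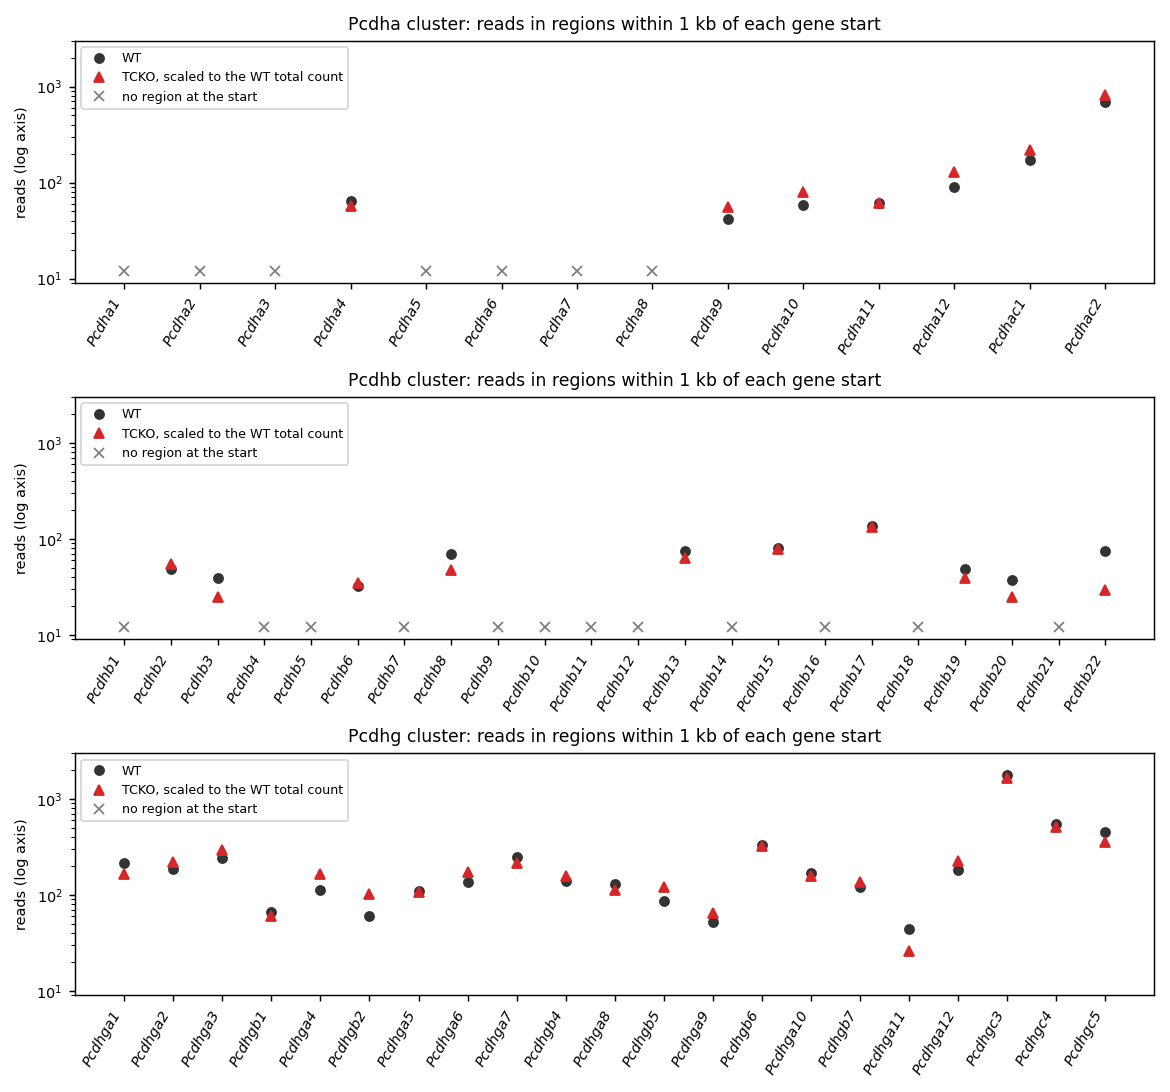
Reads in WT (circles) and in TCKO scaled to the WT total (triangles) in regions within 1 kb of each of the 57 gene starts, in genome order, on a log axis with no error bars. Crosses mark the 19 starts without a region. Apart from Pcdhac1, the C-type genes at the right end of the Pcdha and Pcdhg panels have the most reads, up to 1788 at Pcdhgc3.

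The C-type starts, apart from Pcdhac1, held more reads than any other start in the clusters. Together the 5 genes held 50.3% of the WT reads and 48.8% of the TCKO reads at clustered Pcdh starts. Pcdhgc3 had 1788 reads in WT and 1013 in TCKO in 1 region (chr18:37805935-37807305), with a log2 ratio of −0.10 (−0.21 to 0.01). Pcdhac2 had 683 and 498 reads (chr18:37143404-37144684), and its ratio was 0.26 (0.10 to 0.43). Pcdhgc4 had 548 and 308 reads over 2 regions, with a ratio of −0.11 (−0.32 to 0.09). The remaining C-type starts had fewer reads, and their ratios lay on opposite sides of 0. Pcdhgc5 had 455 and 219 reads (chr18:37819176-37819791), a ratio of −0.34 (−0.57 to −0.11), and Pcdhac1 had 173 and 133 (chr18:37089691-37090209), a ratio of 0.34 (0.01 to 0.66). The 2 Pcdhac starts summed to 0.28 (0.13 to 0.43), whereas the 4 regions at Pcdhgc starts summed to −0.14 (−0.23 to −0.05) and each was below 0. All promoter regions of the table, those with a midpoint within 1 kb of a protein-coding transcript start, summed to −0.11, and 60.5% of them were below 0. Per length, the main start region held 1304 WT reads per kb at Pcdhgc3, 812 at Pcdhgc4, 739 at Pcdhgc5, 533 at Pcdhac2 and 333 at Pcdhac1, beside 519 at Pcdhgb6. Fold enrichment over the local background at the strongest WT peak followed another order. It was 10.4 at Pcdhac1, 9.49 at Pcdhgc3, 5.64 at Pcdhgc4, 5.40 at Pcdhac2 and 3.39 at Pcdhgc5, beside 9.87 at Pcdhga7 and 9.85 at Pcdhgb6. No other clustered start exceeded 335 reads in WT, the value of Pcdhgb6, which had 199 in TCKO and a ratio of −0.03 (−0.29 to 0.22).

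Among the alternate Pcdha isoforms, 5 genes had starts with a region. Pcdha12 had 89 reads in WT and 79 in TCKO over 2 regions, with a ratio of 0.54 (0.11 to 0.98), the only interval of the 5 wholly above 0. The others had 42 to 64 reads in WT and 34 to 49 in TCKO. Pcdha4 had a ratio of −0.15 (−0.74 to 0.44), Pcdha9 of 0.40 (−0.23 to 1.06), Pcdha10 of 0.47 (−0.07 to 1.02) and Pcdha11 of 0.00 (−0.59 to 0.58). The 7 start regions of these genes summed to 0.29 (0.05 to 0.54), close to the value of the Pcdhac starts. Each of the 7 held under 200 reads, and all such regions of the table summed to 0.24, which lies inside that interval.

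The Pcdhb starts had few reads. Reads ranged from 32 at Pcdhb6 to 136 over the 2 regions of Pcdhb17 in WT, and from 15 at Pcdhb3 and Pcdhb20 to 80 at Pcdhb17 in TCKO. The regions with most reads were at Pcdhb17 (chr18:37484805-37485206), with 100 and 58 reads, at Pcdhb15 (chr18:37473412-37473793), with 80 and 48, and at Pcdhb13 (chr18:37442235-37442459), with 75 and 38. Their ratios of −0.07, −0.02 and −0.26 all had intervals that included 0. At Pcdhb22, the last gene of the array, 74 reads in WT stood against 18 in TCKO (chr18:37518276-37518611), a ratio of −1.29 (−2.06 to −0.59), the lowest of any member, in a region centred 572 bp after the start. Pcdhb8 had 70 and 29 reads and a ratio of −0.54 (−1.17 to 0.07). The regions of Pcdhb22 and Pcdhb8 were in the table only through a peak called in WT, which favours a lower TCKO value. Of the 10 Pcdhb starts with a region 8 had ratios below 0, against 60.5% of all promoter regions. Only 3 of the 10 had a peak in TCKO, however. Of promoter regions with a peak in WT alone, 2642 of 3945 were below 0. The Pcdhb starts above 0 were Pcdhb2, with 49 and 33 reads and a ratio of 0.14 (−0.48 to 0.78), and Pcdhb6, with 32 and 21 reads and a ratio of 0.11 (−0.67 to 0.89). Without Pcdhb22 the Pcdhb difference from Pcdha was −0.43, and the Pcdhg excess over Pcdhb was 0.08.

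The Pcdhg starts belong to 3 subfamilies, Pcdhga, Pcdhgb and Pcdhgc. Starts of the 12 Pcdhga genes had 1834 reads in WT and 1176 in TCKO, a ratio of 0.08 (−0.03 to 0.18), with 6 genes below 0 and 6 above. The 6 Pcdhgb genes had 811 and 551 reads, a ratio of 0.16 (0.00 to 0.32), with 2 below 0. The 3 Pcdhgc genes, described above, were all below 0. Pcdhga1, the first gene of the array, had 215 and 100 reads (chr18:37661625-37662246), a ratio of −0.39 (−0.73 to −0.05). The highest ratio was at Pcdhgb2, where the unscaled counts were nearly equal, 61 in WT and 62 in TCKO (chr18:37689792-37690021), giving 0.73 (0.23 to 1.25). Pcdhga4 had 114 and 100 reads (chr18:37685161-37685672) and a ratio of 0.52 (0.14 to 0.91), and Pcdhgb5 had 87 and 74 (chr18:37730930-37731261) and a ratio of 0.48 (0.04 to 0.93). Ratios varied in sign along the array: between Pcdhga1 and Pcdhgb2 lie Pcdhga2, Pcdhga3, Pcdhgb1 and Pcdhga4, with ratios of 0.22, 0.28, −0.12 and 0.52.

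**Figure D3:**
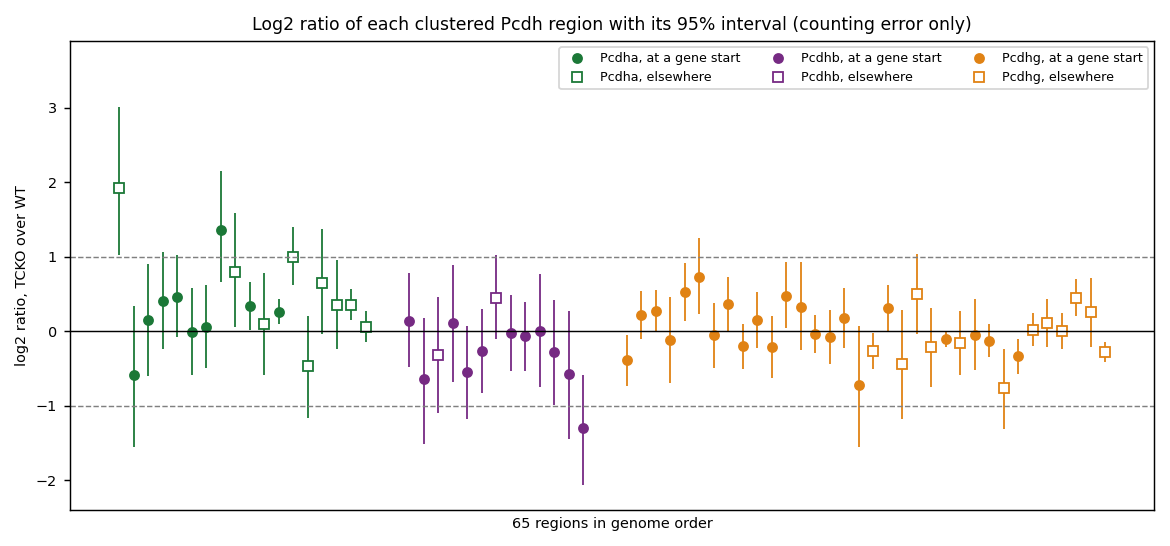
Log2 ratio of TCKO to WT for each of the 65 regions in genome order, with 95% intervals for counting error. Filled circles are regions at gene starts and open squares are the others, and dashed lines mark a change of 2-fold. The 3 highest regions, all in Pcdha, reach the upper line and the Pcdhb22 region lies below the lower line.

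At a cutoff of 2-fold, 1 of 65 members was lower in TCKO, against 4.51% of all regions, and 3 of 65 were higher, against 12.3%. The lower region was that of Pcdhb22, which was in the table only through its WT peak. All 3 higher regions were in Pcdha, and those of Pcdha1 and Pcdha12, with few reads, were named after their values were seen. An intronic region between the Pcdhac2 exon and the first constant exon had 93 reads in WT and 114 in TCKO (chr18:37149381-37149664), a log2 ratio of 1.0 (0.62 to 1.40). A region inside the Pcdha1 exon, 1926 bp after the start, had 11 and 27 reads (chr18:36932060-36932161) and a ratio of 1.92 (1.02 to 3.00). It had no WT peak and was in the table only through its TCKO peak, so its higher TCKO value is no support for the Pcdha ratio. The downstream region at Pcdha12, 542 bp after the start, had 23 and 37 reads (chr18:37020626-37020757) and a ratio of 1.37 (0.66 to 2.15). The upstream region of the same gene, at its promoter, had 66 and 42 reads and a ratio of 0.06.

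Away from gene starts 23 regions remained, and they summed to 4734 reads in WT and 2951 in TCKO, a ratio of 0.04 (−0.03 to 0.10), beside 0.01 (−0.04 to 0.07) for the start regions. In Pcdha both kinds were higher in TCKO, with 0.33 (0.21 to 0.46) away from starts and 0.28 (0.15 to 0.41) at starts. In Pcdhb the 2 regions away from starts came to 0.19 (−0.27 to 0.64), beside −0.28 (−0.47 to −0.08) at starts, and in Pcdhg the values were −0.09 (−0.17 to −0.01) and −0.02 (−0.08 to 0.05). Most of the Pcdha reads outside starts were in 2 regions of the last intron, between the second and the last constant exon. The region at chr18:37172216-37172820 had 414 and 323 reads, a ratio of 0.36 (0.15 to 0.57), and that at chr18:37178246-37178951 had 461 and 293, a ratio of 0.06 (−0.15 to 0.27). Before the constant exons, a smaller region at chr18:37150633-37150757 had 55 and 24 reads and a ratio of −0.47 (−1.16 to 0.21).

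In Pcdhg the region with most reads outside starts lay in the last intron as well, at chr18:37835276-37837023. It had 1300 reads in WT and 653 in TCKO, a ratio of −0.28 (−0.41 to −0.14), and was the second of all members by reads. In the intron between the first and the second constant exon, the region at chr18:37826322-37826787 had a ratio on the other side of 0, with 287 and 239 reads and 0.45 (0.21 to 0.70). Inside the Pcdhgc4 variable exon, 1222 bp after its start, 104 and 37 reads (chr18:37816205-37816397) gave a ratio of −0.76 (−1.31 to −0.24), beside −0.11 at the start of the gene. This exon region was in the table only through a WT peak, which favours a lower TCKO value. A region upstream of Pcdhgc3 (chr18:37786585-37786912) had 59 and 51 reads and a ratio of 0.50 (−0.03 to 1.04). The start of Pcdhgb8, which GENCODE calls a polymorphic pseudogene and which is therefore not among the 57 genes, lay in a member region with 389 and 197 reads (chr18:37761316-37761988) and a ratio of −0.26 (−0.51 to −0.02).

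Peaks were called at fewer members in TCKO. The peak caller placed a summit, the point of highest signal, in 63 of 65 members in WT (96.9%) and in 41 of 65 in TCKO (63.1%), against 89.8% and 67.0% of all regions. Both genotypes had a summit in 39 members, 24 (36.9%) had one in WT only, against 33.0% of all regions, and 2 in TCKO only, against 10.2%. The 2 were the Pcdha1 exon region and a Pcdha12 exon region with 26 reads in WT and 28 in TCKO (chr18:37022133-37022269), whose ratio was 0.80 (0.06 to 1.59). A summit in WT only was found at 9 of 13 regions in Pcdhb, 8 of 18 in Pcdha and 7 of 34 in Pcdhg. The members with a summit in WT only had a median of 47.5 reads in WT and 26 in TCKO, against 168 and 107 for members with both. In these calls the lower TCKO read total over regions and the genotype cannot be told apart. Whether that total reflects shallower sequencing or a smaller share of reads in regions was not tested. The estimated peak caller background gave a factor of 1.079, not 1.644.

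At gene starts, 42 regions had a WT summit and 28 a TCKO summit. The strongest WT summit lay at a median of −19 bp from the start, with 33 of 42 within 250 bp, and the strongest TCKO summit at 4.5 bp, with 24 of 28 within 250 bp. Where both were present they were a median of 16.5 bp apart, and 23 of 28 pairs were within 100 bp. The widest gap, 390 bp, was at Pcdhga10. In the 39 members with both summits, the fold enrichment over the local background of the same library had a median of 5.40 in WT and 4.04 in TCKO, and it was higher in TCKO at 13. By cluster it was higher in TCKO at 4 of 8 regions in Pcdha, 1 of 4 in Pcdhb and 8 of 27 in Pcdhg. The same medians and shares were not computed for all regions with both summits, so whether these values are particular to the clusters is not known. In these fold enrichments, too, the lower TCKO read total over regions and the genotype cannot be told apart.

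**Figure D4:**
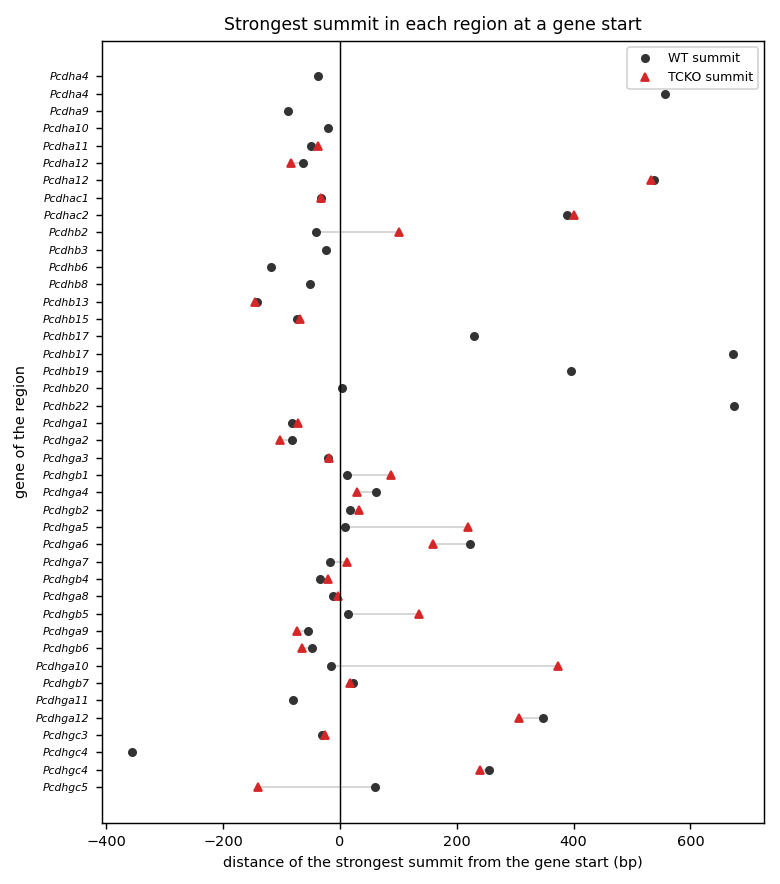
Distance in bp from the gene start to the strongest summit in each of the 42 regions at gene starts, in WT (circles) and TCKO (triangles), with grey lines joining both summits of a region. Most summits of both genotypes lie near 0, and 14 regions, 8 of them in Pcdhb, have a WT summit only.

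The members were richer in CpGs than most of the table, a feature that the rule did not use. Their median CpG density was 3.56 per 100 bp, against 1.02 for all regions and 5.43 for all promoter regions of the table. It was highest in Pcdhg, at 4.43, followed by Pcdha at 3.17 and Pcdhb at 2.16, which is not the order of the accessibility ratios. Within 250 bp on either side of the gene start, starts with a region and starts without one had medians of 16 and 17 CpGs in Pcdha and of 8 and 9.5 in Pcdhb. The letters CGCT, the core of a sequence element known from clustered Pcdh promoters, were found on either strand within the central 200 bp of 72.3% of members and of 83.3% of start regions. In all promoter regions they were found at 72.1%, as in the members as a whole but below the start regions. In all regions the share was 32.8%. The CTCF consensus was found on either strand in the central 200 bp of 4 members, 6.15% against 3.05% of all regions. These were the downstream regions of Pcdha4 and Pcdha12, 562 and 542 bp after the start, and regions inside the exons of Pcdhb3 and Pcdhb14, 2398 and 2299 bp after the start. Their ratios were 0.15, 1.37, −0.31 and 0.45, and 0 of 34 Pcdhg regions held it. A match describes the letters alone and says nothing of binding.

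Variable exons of a cluster resemble each other, and the study kept only uniquely mapping reads. Words of 50 bases that occur more than once, on either strand, in 2 Mb of chromosome 18 around the clusters made up at most 12.3% of the positions of any member, and 7 of the 65 members had any. The highest share was at Pcdhgb4, followed by Pcdhgb6 and Pcdhgb5. A gene that starts at chr18:37005203 carries the symbol Pcdha11 in GENCODE M21, as does its neighbour, and is called Pcdha10 in RefSeq and here.

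Around the clusters ratios were near 0 on either side and below 0 between them. The 146 regions in the 1 Mb before the clusters summed to a ratio of 0.01 and the 177 in the 1 Mb after them to 0.01. The 6 regions between the clusters, which include the start of Taf7, a subunit of the general transcription factor TFIID, had 2403 reads in WT and 1272 in TCKO and a ratio of −0.20 (−0.30 to −0.10). Taf7 itself had 1216 and 657 reads and a ratio of −0.17 (−0.31 to −0.03). Of the 5 genes before the clusters all had ratios below 0, with a median of −0.18, and the 5 after them had a median of 0.09, whereas 56.2% of 18073 gene loci with regions were below 0.

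Other protocadherin genes, which lie outside the clusters, had ratios from −0.17 at Pcdh11x to 0.59 at Pcdh15, with a median of 0.12, and 4 of 12 were below 0. The 13 genes for factors known to act on the clusters, CTCF, cohesin and its loader and release factor, and regulators of DNA methylation and silencing among them, had a median of −0.09, with 9 below 0. Ctcf had 2227 reads in WT and 1218 in TCKO, a ratio of −0.15 (−0.25 to −0.05), and Wapl, which encodes the cohesin release factor, had 1612 and 841, a ratio of −0.22 (−0.34 to −0.10). On the higher side, Smchd1, a silencing factor known to act on the clusters, had 2817 and 1893 reads, a ratio of 0.14 (0.06 to 0.23), and Dnmt3b, the de novo methyltransferase that methylates clustered Pcdh promoters, had 1053 and 763, a ratio of 0.25 (0.12 to 0.39).

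By the medians of sums over whole loci, marker loci of endothelial cells and neurons were also higher in TCKO under the same scaling, beside the higher Pcdha ratio. All 4 endothelial loci had intervals above 0, with a median of 0.41 and 6421 reads in WT and 4996 in TCKO, and 4 of 5 neuronal loci did, with a median of 0.26 and 13575 and 9481 reads. The exception was Neurod1, with 367 and 190 reads and a ratio of −0.23 (−0.48 to 0.02). Of the neuronal reads, Rbfox3 held 5364 and 4027 over 49 regions and Syt1 7127 and 4713 over 59. Start regions did not all follow the locus sums. Unscaled start reads in WT and TCKO were 185 and 221 at Pecam1, 399 and 346 at Kdr and 339 and 162 at Tek. Neuronal start reads were 56 and 57 at Rbfox3, 325 and 192 at Snap25 and 898 and 554 at Syt1. Cdh5, Dcx and Neurod1 had no start region. The share of all loci with an interval above 0 was not computed. Medians were 0.10 for 4 glial loci, 0.09 for the 3 of 4 muscle loci with a region (Myog had none) and 0.01 for 4 macrophage or osteoclast loci, against −0.15 for the 6 osteoblast loci and −0.03 for all loci. The part of these cells in the cluster ratios was not tested.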

How the data were processed

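ATAC-seq was analysed from merged data of WT and TCKO primary osteoblasts. According to the methods and the submitters' processing notes, the authors aligned reads to GRCm38 with STAR 2.7.0e, kept uniquely mapping reads, pooled replicates by genotype and ran MACS2 on the pools. The removal of duplicates and a shift of reads for the transposase were not given in the sources used here. The deposited table held raw read counts per region. The deposited peak lists held a fold enrichment at each summit, a ratio to local background, beside a p-value and a q-value, both written as −log10.

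The columns summed to 56898657 counts (WT) and 34608167 counts (TCKO), which sets the precision. Log2 ratios were formed after scaling TCKO to the WT total, with 1 count added for single regions, gene starts and gene loci. The edgeR quasi-likelihood test foreseen for replicate columns could not be applied to merged columns. Alternative factors came from edgeR 4.0.16 (TMM), DESeq2 1.42.0 and the peak caller backgrounds estimated from the peak lists. A loess trend (statsmodels 0.14.6, span 0.3) and medians of 20 GC bins were also removed. The script was tested on simulated counts. Regions overlapped genes by at least 1 bp, and chromosome lengths were checked against GRCm38. Members, lists and tests were chosen with earlier results of these data known. Genes named were the C-type genes, the 3 regions with most reads per cluster, the 5 lowest and 5 highest ratios among regions with at least 50 reads in 1 genotype, the first and last gene of each cluster and the comparison lists.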

Additional observations from a re-analysis of the deposited data

How the results depend on the processing

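The ratios depended on the scaling. For all members the log2 ratio was −0.69 unscaled, −0.58 with the peak caller background, −0.053 with TMM and −0.042 with DESeq2 size factors. In the same order Pcdhg came to −0.76, −0.65, −0.12 and −0.11, and start regions to −0.70, −0.59, −0.061 and −0.050. Other regions were −0.68, −0.57 and, with TMM, −0.040. Under the first and second of these scalings Pcdha reversed to −0.41 and −0.30, and Pcdhb fell to −0.93 and −0.82. The median of all regions was then −0.64 and −0.53, and it was −0.01 with TMM. Members at least 2-fold lower numbered 12 unscaled, 9 with the peak caller background, 4 at 1.5-fold, 0 at 3-fold and 0 with the interval wholly past 2-fold, against 25.6%, 19.8%, 13.2%, 0.784% and 0.654% of all regions. Members higher numbered 1, 1, 6, 1 and 1, against 3.17%, 3.93%, 23.3%, 4.03% and 3.82%. The share with a WT summit was 55.4% at a −log10 q of at least 5, 24.6% at 10 and 80.0% with equal numbers of peaks, and that with a TCKO summit was 32.3%, 13.8% and, with at least 50% of the region covered, 50.8%. In gene bodies only, within 2 kb of a start, with at least 50 reads, after removal of the loess or GC trend, without the region with most reads of each cluster, and in regions under 200 reads, the difference of Pcdhb from Pcdha ranged from −0.65 to −0.51, that of Pcdhg from Pcdha from −0.35 to −0.32 and that of Pcdhg from Pcdhb from 0.17 to 0.32. Regions with summits in both genotypes gave −0.23 for Pcdhb against Pcdha and turned Pcdhg against Pcdhb to −0.10, and the Pcdhb ratio itself was reversed to 0.067. Away from starts, where Pcdhb has 2 regions, these differences were −0.15 and −0.27. Regions under 200 reads, at starts, away from starts, with a WT summit or with both summits, and each region left out in turn, were selections added after the data were seen. Of 127 alternative values 87 stayed within the counting error of the reported value or, for counts of regions, within 1.5 times the reported count. Some of these 87 lay on the other side of 0 from a reported ratio near 0. No paired analysis was possible because the replicates of each genotype were merged in 1 column, and leaving out replicates was not run for the same reason. Depth limits the Pcdhb regions most, with a median of 49 reads in WT and 24 in TCKO.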
